A study of Capra hircus with 9 samples.

Results

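The 10 smooth muscle contractile genes MYH11, ACTA2, ACTG2, DES, FLNA, CNN1, TAGLN, MYLK, LMOD1 and SMTN were followed library by library in the uterus of Liaoning Cashmere goats (Capra hircus) at days 6, 16 and 19. They were chosen by name, as the rows of the deposited count table with these symbols, and all 10 of 10 were found among 25671 gene rows. All 10 also passed the filter on low counts, which left 16098 genes for testing. Polyadenylated RNA of each day was sequenced as 3 libraries, which the labels place at 6, 16 and 19 days peri-implantation without saying from which event the days run. No treatment, genotype or age is given, and no label ties the 3 libraries of a day to different goats. The p-values below therefore reflect library-to-library spread alone, some of which may be technical. The labels name the tissue as uterus in one field, as endometrial epithelium in the title and as testis in the collection protocol.

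The wall of the uterus carries a thick coat of smooth muscle, the myometrium, around an inner lining, the endometrium, and smooth muscle also wraps its arteries. Smooth muscle contracts when a rise in calcium activates myosin light chain kinase, which phosphorylates myosin so that it pulls on actin filaments; calponin, transgelin, smoothelin and leiomodin bind or build those filaments, and desmin and filamin tie them into the cell's framework. The contractile proteins are made at high level by mature smooth muscle, so their messages serve as a gauge of how much muscle a piece of uterus holds. In bulk RNA, fewer muscle cells and less contractile RNA per cell cannot be told apart, and the muscle of the myometrium cannot be told apart from that of vessels by these 10 genes alone.

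The libraries held 8712751 to 11074693 counts, and each of the 10 genes had between 857 and 106895 counts in every library, so counting error was small beside the spread between libraries. Values are CPM, a gene's counts scaled to a fixed library size with edgeR's TMM factors and not divided by transcript length, so no order of level between different genes is drawn. Day 19 replicate 1 stood apart from the other day 19 libraries: ribosomal protein genes held 2.40% of its counts, against 6.59% in replicate 2, 5.62% in replicate 3 and 3.63% to 4.33% in the libraries of days 6 and 16. The chi-square per degree of freedom between the counts of that library and its 2 partners was 140 and 124, while it lay between 9.86 and 37.4 for the other pairs of a day. Results that rest on this library, or on day 6 replicate 1, are given with and without them.

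The summed share of the 10 genes differed more within day 6 than between days. The 10 genes together took 1.42%, 4.55% and 3.68% of all counts in day 6 replicates 1, 2 and 3. At day 16 they took 2.75%, 3.03% and 3.11%, and at day 19 they took 3.38%, 2.88% and 4.58%. Day 6 replicate 1 was the lowest of the 9 libraries and day 19 replicate 3 the highest, with day 6 replicate 2 close behind it. For day 6 the mean share was 3.22% ± 1.61, for day 16 it was 2.96% ± 0.191, and for day 19 it was 3.61% ± 0.872, each with its SD over 3 libraries, and the ranges of the 3 days overlapped. No test was run on this sum, since the genes were chosen as a set.

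**Figure D1:**
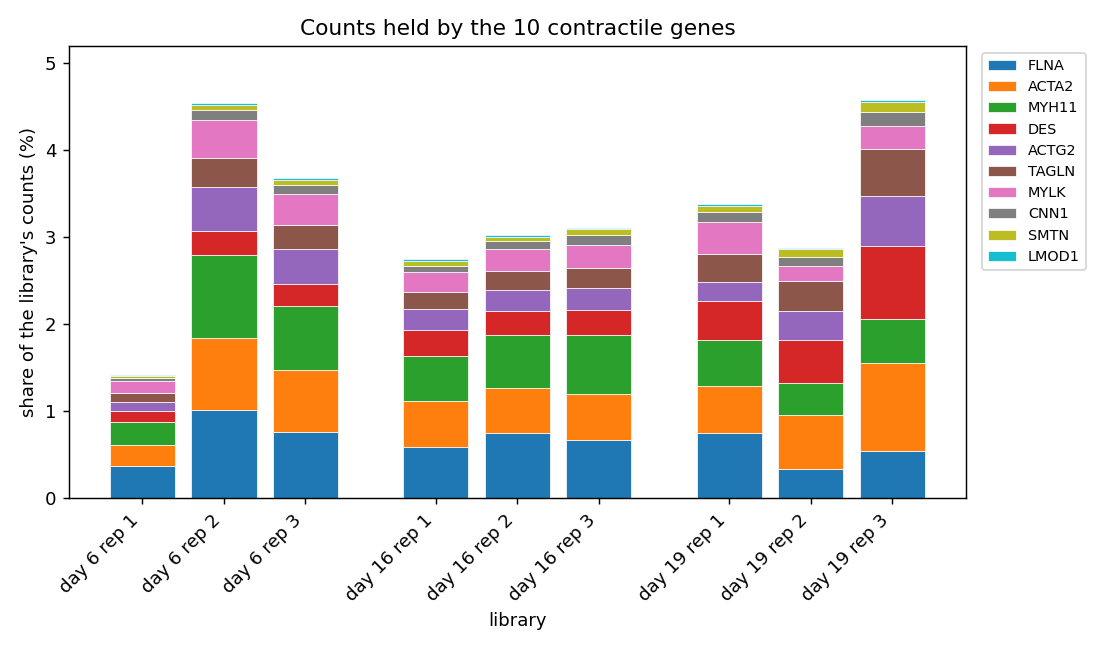
Stacked bars give the percent of each library's counts held by each of the 10 genes, with the 9 libraries on the horizontal axis grouped by day. The bar of day 6 replicate 1 reaches 1.42%, and the other 8 lie between 2.75% and 4.58%.

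Each gene took part in the low level of day 6 replicate 1. All 10 had their lowest value of the 9 libraries there, and within day 6 the highest library exceeded it by 2.37-fold for DES to 5.56-fold for ACTG2. The coefficient of variation of the 10 genes had a median of 51.5% at day 6, 8.33% at day 16 and 33.0% at day 19. For the other 2112 genes with a mean of at least 100 CPM, the median was 8.73%, 10.5% and 27.8% on the same days. At day 16 the contractile genes were thus about as even as other genes, and at day 6 they were far less even.

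MYH11 encodes the heavy chain of smooth muscle myosin, the motor of contraction. It stood at 2428, 9412 and 7112 CPM at day 6, at 5147, 6039 and 6313 CPM at day 16 and at 5476, 4023 and 5681 CPM at day 19. The day 6 libraries enclosed all others in range, and the later days overlapped. MYLK, the kinase that switches this motor on, had 1285, 4366 and 3481 CPM at day 6, 2276, 2492 and 2459.8 CPM at day 16 and 3845, 1986 and 2913 CPM at day 19. Its highest day 19 library was replicate 1, in contrast to the actins.

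ACTA2, the alpha actin of smooth muscle, had 2178, 8072 and 6731 CPM at day 6, 5299, 5066 and 4858 CPM at day 16 and 5705, 6869 and 11308 CPM at day 19. ACTG2, the gamma actin typical of visceral smooth muscle, had 889, 4943 and 3848 CPM at day 6, 2390.1, 2296 and 2334 CPM at day 16 and 2322, 3714 and 6435 CPM at day 19. Both actins were highest in day 19 replicate 3 and nearly flat over day 16, where the highest library was 1.09 times the lowest for ACTA2 and 1.04 times for ACTG2. The 2 actins differ little in coding sequence, so the counting, whose handling of shared reads is not given in the sources used here, could have moved reads between them. The ratio of ACTG2 to ACTA2 counts was 0.408, 0.612 and 0.572 in day 6 replicates 1, 2 and 3, between 0.451 and 0.480 at day 16, and 0.407, 0.541 and 0.569 in day 19 replicates 1, 2 and 3. It was thus lowest in the 2 libraries that stood apart.

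Among the proteins that sit on the actin filament, CNN1 encodes calponin, which restrains the myosin motor. It had 342, 1124 and 946 CPM at day 6, 757, 905 and 1006 CPM at day 16 and 1222, 1091 and 1868 CPM at day 19. TAGLN encodes transgelin, an actin-bundling protein of the same family, and had 937, 3286 and 2626 CPM at day 6, 1953, 2192 and 2199.9 CPM at day 16 and 3252, 3786 and 6106 CPM at day 19. For both genes the day 19 libraries lay above all day 16 libraries, and they overlapped with day 6.

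SMTN encodes smoothelin, an actin-binding protein of fully contractile smooth muscle. It had 224, 555 and 515 CPM at day 6, 555, 517 and 631 CPM at day 16 and 685, 968 and 1268 CPM at day 19, and every day 19 library lay above every earlier one. LMOD1 encodes leiomodin, which starts new actin filaments, and had 79.5, 239 and 244 CPM at day 6, 166, 203 and 189 CPM at day 16 and 275, 187 and 249.7 CPM at day 19. The days overlapped for LMOD1.

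DES encodes desmin, the intermediate filament of muscle cells. It had 1134, 2688 and 2340.0 CPM at day 6, 2964, 2825 and 2719 CPM at day 16 and 4625, 5448 and 9445 CPM at day 19. It was the one gene of the 10 whose 3 days did not overlap at all. FLNA encodes filamin A, a large crosslinker of actin that many cell types make. It had 3364, 10036 and 7312 CPM at day 6, 5842, 7492 and 6263 CPM at day 16 and 7767, 3767 and 6115 CPM at day 19, and its days overlapped.

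**Figure D2:**
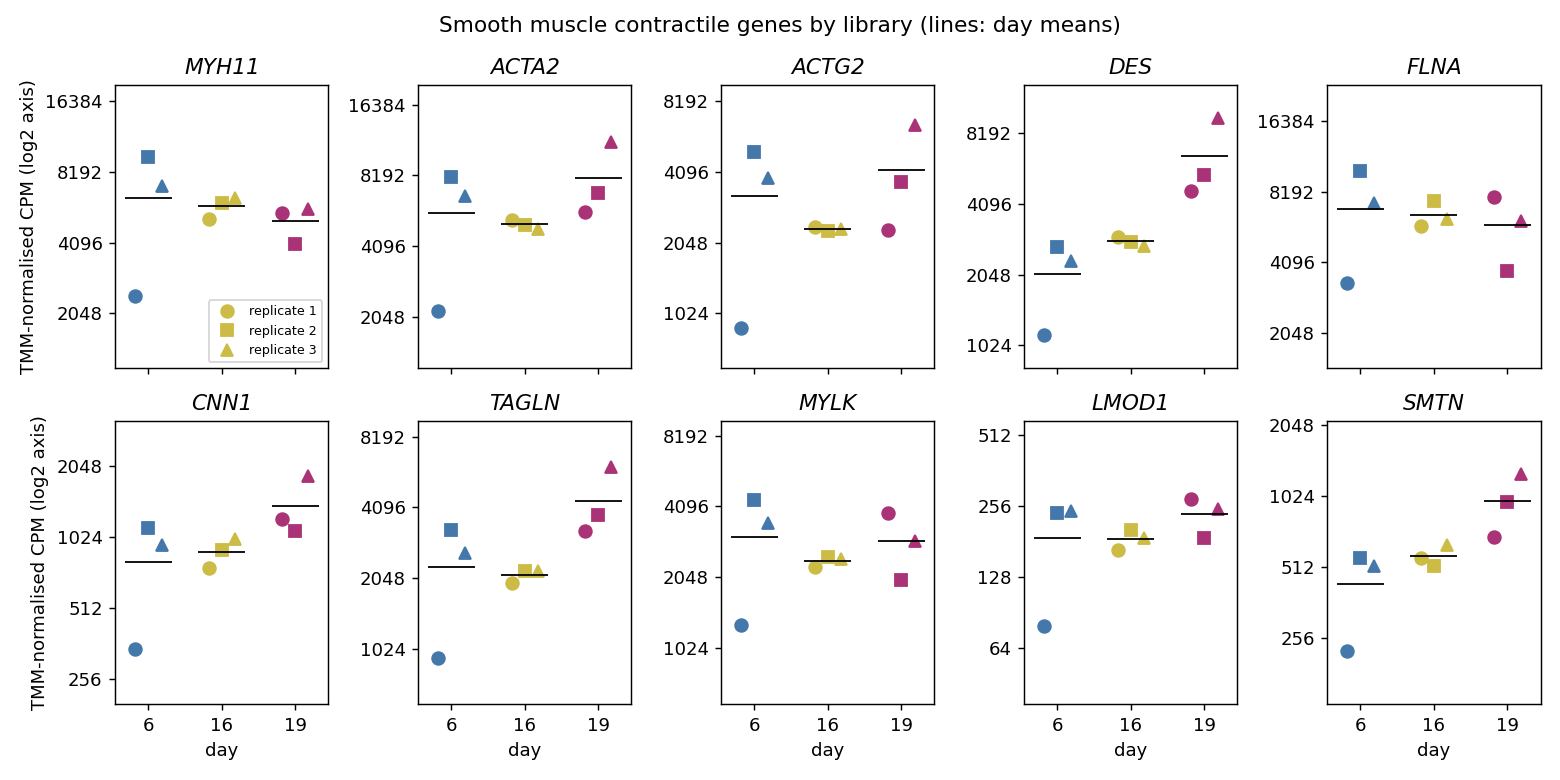
Each panel shows 1 gene, with the day on the horizontal axis and TMM-normalised CPM on a log2 axis; circles, squares and triangles are replicates 1, 2 and 3 and lines are day means. Day 6 replicate 1 is the lowest point in all 10 panels, and DES at 4625 to 9445 CPM at day 19 lies above both earlier days.

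Contractile messages were first compared between day 16 and day 6. None of the 10 genes passed at an adjusted p under 0.05 (edgeR quasi-likelihood, Benjamini-Hochberg over 16098 genes), where 8.86% of all genes tested did, 5.12% as higher and 3.74% as lower. None had an unadjusted p under 0.05, against 21.1% of all genes tested, and DESeq2 and limma voom also called none. The log2 fold changes lay between -0.46 for ACTG2 (SE 0.56) and 0.47 for DES (SE 0.38), with a median of -0.10, against a median of -0.00027 over all genes tested. The libraries of the 2 days did not overlap for 1 of the 10 genes, DES, against 38.7% of all genes tested. The standard errors of the 10 genes ran between 0.35 and 0.56, so a moderate change could have gone undetected in these libraries.

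Day 6 replicate 1 set much of this spread. Without it the median log2 fold change of the 10 genes was -0.44, and still none passed, where 5.07% of all genes tested did. With day 19 replicate 1 left out as well, which enters through the shared estimate of the spread, ACTG2 fell by 0.91 on the log2 scale (SE 0.23, adjusted p = 0.0263) and MYLK fell by 0.70 (SE 0.20, adjusted p = 0.0382) in edgeR with Benjamini-Hochberg adjustment. Those 2 of 10 stand beside 17.6% of genes called in the same fit, 9.28% as higher and 8.28% as lower. Day 6 replicate 1 was left out after its low contractile levels were seen, so this fit describes the other 7 libraries and is no independent evidence.

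Over the later days, day 19 against day 16, none of the 10 genes passed in edgeR, where 1.2% of genes tested did, 0.516% as higher and 0.683% as lower. DES and TAGLN, 2 of the 10, had an unadjusted p under 0.05, against 24.5% of all genes tested. DESeq2 called DES alone, or 1 of 10, where it called 10.9% of all genes tested, and limma voom called DES, TAGLN and SMTN, or 3 of 10, where it called 45.7%. The median log2 fold change of the 10 was 0.65, against 0.01 over all genes tested, and 8 of the 10 values were above 0. The largest were those of DES at 1.20 (SE 0.38), TAGLN at 1.05 (SE 0.44) and ACTG2 at 0.83 (SE 0.57), and the lowest were those of FLNA at -0.15 (SE 0.42) and MYH11 at -0.20 (SE 0.43). ACTA2, DES, CNN1, TAGLN and SMTN did not overlap between the days, which makes 5 of 10, against 23.9% of all genes tested.

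The result of this comparison turned on day 19 replicate 1. Without that library DES rose with a log2 fold change of 1.41 (adjusted p = 0.00942) and SMTN with 0.99 (adjusted p = 0.0371) in edgeR with Benjamini-Hochberg adjustment, where 44.7% of all genes tested were called, 21.6% as higher and 23.1% as lower. Without day 6 replicate 1 in addition, ACTA2, ACTG2, DES, CNN1, TAGLN and SMTN rose, with log2 fold changes of 0.71 for CNN1 to 1.37 for DES and adjusted p between 0.00121 and 0.0331 (edgeR, Benjamini-Hochberg). In that fit 45.5% of genes were called, 20.9% as higher and 24.6% as lower, and MYH11, FLNA, MYLK and LMOD1 did not pass. Day 6 replicate 1 was left out after its low contractile levels were seen. The calls of that fit thus describe the remaining libraries and are no independent evidence.

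The comparison of day 19 with day 6 spans the whole series. DES rose 3.17-fold, to 6506 ± 2578 CPM at day 19, against 2054 ± 816 CPM at day 6 (SD, n = 3 each; log2 fold change 1.66, SE 0.39, edgeR adjusted p = 0.0148). SMTN rose 2.26-fold, to 974 ± 291 CPM at day 19, against 432 ± 181 CPM at day 6 (SD, n = 3 each; log2 fold change 1.17, SE 0.36, edgeR adjusted p = 0.0416). These 2 of 10 are a share near the background, since 22.9% of all genes tested were called, 12.7% as higher and 10.2% as lower, and 38.1% had an unadjusted p under 0.05. For both genes the 3 libraries of day 19 all lay above the 3 of day 6, which makes 2 of 10 without overlap, against 38.5% of all genes tested. DES was also the single member to pass the test for any difference among the 3 days (edgeR adjusted p = 0.0268), which 19.6% of genes passed.

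The other 8 genes did not pass in edgeR. DESeq2 called 2 of the 10 genes here and limma voom 3, all as higher, where they called 30.6% and 58.6% of all genes tested. TAGLN averaged 4381 ± 1517 CPM at day 19 and 2283 ± 1212 CPM at day 6 (SD, n = 3 each; log2 fold change 0.94, SE 0.44, edgeR adjusted p = 0.145). CNN1 had a log2 fold change of 0.79 (SE 0.41), ACTA2 of 0.49 (SE 0.46) and ACTG2 of 0.37 (SE 0.56). MYH11, FLNA and MYLK had values below 0, at -0.32 (SE 0.44), -0.23 (SE 0.42) and -0.06 (SE 0.42). The median of the 10 was 0.43, against 0.02 over all genes tested.

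The calls of DES and SMTN differed in how far they rested on single libraries. The adjusted p of DES was 0.0512 without day 6 replicate 3 and 0.0527 with the libraries of days 6 and 19 alone, by edgeR with Benjamini-Hochberg adjustment, and it stayed under 0.05 without any other single library. SMTN lost its call without each of 8 libraries in turn, at adjusted p of 0.0589 to 0.128 in edgeR, and kept it without day 19 replicate 1. In that fit DES and SMTN rose with log2 fold changes of 1.87 and 1.39 (edgeR adjusted p = 0.00173 and 0.00687), beside 54.2% of all genes tested that were called, 27.2% as higher and 27% as lower.

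Without day 6 replicate 1 and day 19 replicate 1 together, the 10 genes parted in direction between day 19 and day 6. DES, SMTN and TAGLN rose, by 2.92-fold, 2.06-fold and 1.65-fold, with adjusted p of 0.00105, 0.00149 and 0.0318 (edgeR, Benjamini-Hochberg). MYH11 fell by 0.79 on the log2 scale (SE 0.23, adjusted p = 0.0187), FLNA fell by 0.83 (SE 0.27, adjusted p = 0.0280) and MYLK fell by 0.70 (SE 0.22, adjusted p = 0.0240) in the same edgeR fit. In it 51.7% of all genes tested were called, 25% as higher and 26.6% as lower, so a share of 3 of 10 each way is near the background. ACTA2, ACTG2, CNN1 and LMOD1 did not pass. The limit given above holds here too, since day 6 replicate 1 was left out after its low contractile levels were seen. These calls, and the counts from this fit given below, describe the remaining libraries and are no independent evidence.

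**Figure D3:**
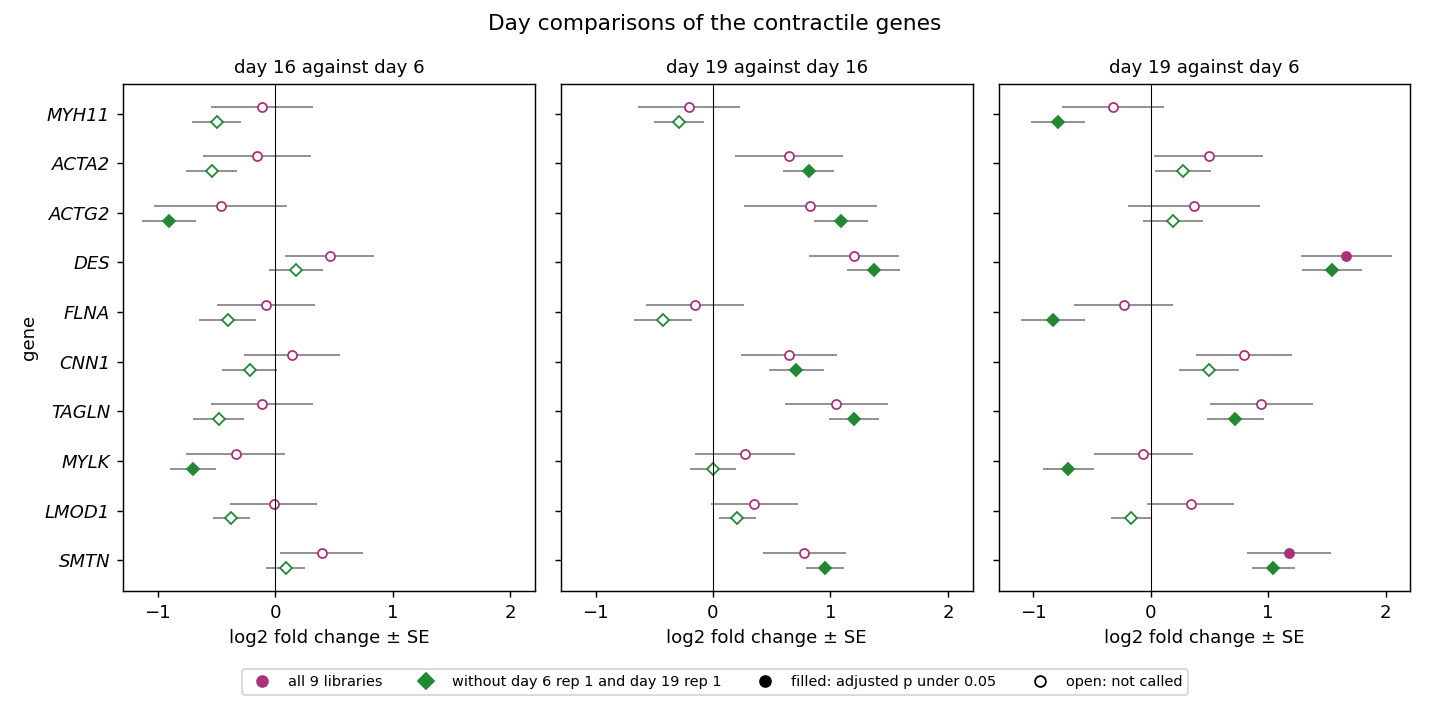
Points give the log2 fold change of each gene in the 3 comparisons and bars its standard error; circles are from all 9 libraries and diamonds from 7, without day 6 replicate 1 and day 19 replicate 1, and filled symbols passed at an adjusted p under 0.05. With all 9 libraries DES and SMTN are filled, in the comparison of day 19 with day 6, and with 7 libraries 3 genes lie above 0 and 3 below 0 there as filled symbols.

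The make-up of the set was also read, apart from its summed level. Each gene was set against the mean log2 CPM of all 10 in the same library and centred over the 9 libraries. DES stood between -0.67 and -0.18 at day 6, between -0.18 and 0.07 at day 16 and at 0.27, 0.63 and 0.79 in day 19 replicates 1, 2 and 3. TAGLN stood at 0.06 to 0.47 at day 19, against -0.23 to -0.18 at day 16. At the other end MYH11 stood at 0.17 to 0.39 at day 6, at 0.12 to 0.30 at day 16 and at -0.69 to -0.23 at day 19. FLNA stood at 0.09, -0.83 and -0.76 in day 19 replicates 1, 2 and 3, against 0.11 to 0.37 at day 16, so that replicate 1 lay just below the day 16 range. MYLK stood at -0.02 to 0.00 at day 16, against 0.27 to 0.33 at day 6.

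On this relative scale DES, TAGLN, MYH11 and FLNA did not overlap between day 19 and day 16, which makes 4 of 10, near the 34% of all genes tested that did so when set against the same mean. Between day 19 and day 6, DES, TAGLN, MYH11, FLNA, CNN1 and SMTN did not overlap, which makes 6 of 10, against 23%. Between day 16 and day 6, DES, CNN1, TAGLN and MYLK did not overlap, which makes 4 of 10, against 11.2%. The ratio of DES to MYH11 counts, chosen after its values were seen, was between 0.286 and 0.467 at day 6, between 0.431 and 0.576 at day 16 and at 0.844, 1.35 and 1.66 in day 19 replicates 1, 2 and 3. The members enter the mean they are set against, so these values describe the set and carry no test. Taking off that mean removes spread the members share and adds it to genes that do not share it. On plain CPM the shares of all genes without overlap were 38.7% for day 16 against day 6 and 38.5% for day 19 against day 6. For day 19 against day 16 the share was 23.9%. The member shares on the relative scale are therefore not read as an excess over other genes.

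ACTA2 and CNN1 tracked the mean of the 10 most closely. Their log2 CPM had a standard deviation of 0.65 and 0.66 over the 9 libraries, which fell to 0.16 and 0.15 once the mean of the 10 was taken off. For FLNA the standard deviation was 0.50 before and 0.47 after, and for DES it was 0.86 before and 0.50 after.

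**Figure D4:**
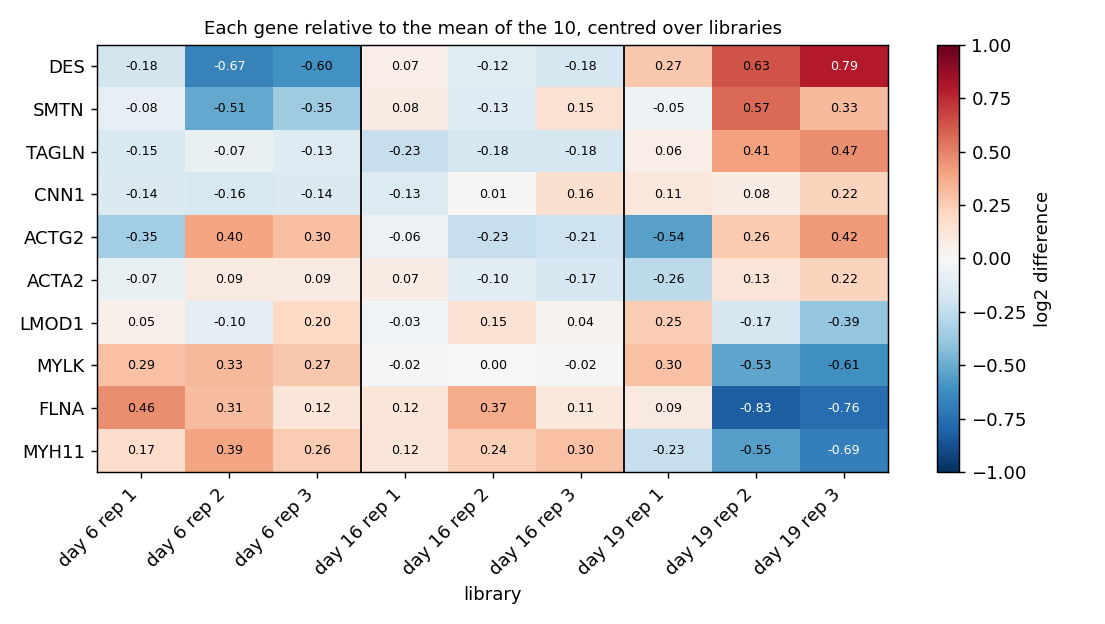
Cells give the log2 level of each gene relative to the mean of the 10 genes in that library, centred per gene over the 9 libraries shown as columns. DES reaches 0.79 in day 19 replicate 3, while FLNA and MYH11 are at -0.76 and -0.69 there.

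The day 19 libraries also differed among themselves in the make-up of the set. In replicate 1, against the mean of replicates 2 and 3, the log2 level was higher by 0.69 for FLNA, 0.68 for MYLK, 0.34 for LMOD1 and 0.20 for MYH11. For the other 6 genes the difference was negative, from -0.22 for CNN1 to -1.07 for ACTG2. Relatives of these genes, added after the data were seen, did not all follow their families. The non-muscle myosins MYH9 and MYH10 had 1719 and 172 CPM in replicate 1, against 815 and 102 in replicate 2 and 837 and 123 in replicate 3. FLNC, a filamin of muscle, had 695 CPM in replicate 1, against 292 in replicate 2 and 506 in replicate 3. Those 3 were highest in replicate 1, as FLNA and MYLK were. The cytoplasmic actins ACTB and ACTG1 were lowest in replicate 1, at 3999.9 and 4611 CPM, as ACTA2 and ACTG2 were. CNN3 was instead highest in replicate 1, at 303 CPM against 189 and 197 in replicates 2 and 3, unlike CNN1. ACTA1, at 25.9 CPM against 21.0 and 20.5, was also highest there, unlike the smooth muscle actins. The ribosomal protein share, given above, was lowest in replicate 1, as ACTA2, ACTG2, DES, TAGLN and SMTN were, and its part in the result was not tested.

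Of 30 further filament and cytoskeleton genes of smooth muscle, 29 were tested. In edgeR, 3 rose and 1 fell between day 19 and day 6, where 12.7% of all genes tested rose and 10.2% fell. None passed between day 16 and day 6, where 8.86% of all genes did. DESeq2 called 2 there and voom 4, against 14.1% and 23.7% of all genes. An unadjusted p under 0.05 was seen for 4, against 21.1% of all genes. None passed between day 19 and day 16 either, where 1.2% of all genes did. DESeq2 called 4 there and voom 9, beside 10.9% and 45.7% of all genes. In this comparison 5 had an unadjusted p under 0.05, against 24.5% of all genes. NEXN, a filament protein known as nexilin, rose 2.48-fold, to 131 ± 48.4 CPM on day 19, against 53.0 ± 23.4 CPM on day 6 (SD, n = 3 each). SGCA, a sarcoglycan of the muscle cell membrane, rose 2.52-fold, to 8.86 ± 0.674 CPM on day 19, against 3.51 ± 1.78 CPM on day 6 (SD, n = 3 each). MYL6, an essential light chain of myosin, rose 2.80-fold, although its libraries overlapped, with 809, 2619 and 2783 CPM at day 19 and 454, 1028 and 737 CPM at day 6. TAGLN2, the transgelin of non-muscle cells, fell by 1.11 on the log2 scale (SE 0.32), to 392 ± 169 CPM at day 19, against 845 ± 120 CPM at day 6 (SD, n = 3 each). The edgeR adjusted p of these 4 genes lay between 0.0302 and 0.0447. The median log2 fold change of the 29 was 0.05. Without day 6 replicate 1 and day 19 replicate 1 together, 5 rose and 13 fell between these days, beside the 25% and 26.6% of all genes given above.

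The calls of NEXN, SGCA, TAGLN2 and MYL6 were lost without 6, 5, 7 and 8 of the 9 single libraries, at edgeR adjusted p of up to 0.0981, 0.113, 0.0975 and 0.139. By mean CPM, which is not divided by length, the highest of that list were TPM2, MYL9 and VIM. TPM2 is a muscle tropomyosin, MYL9 the regulatory light chain that MYLK phosphorylates and VIM an intermediate filament gene. TPM2 had 761, 3072 and 2553 CPM at day 6, 1864, 2029 and 1961 at day 16 and 2373, 4611 and 7172 at day 19. MYL9 had 858, 2640.2 and 2291 CPM at day 6, 1344, 1558 and 1196 at day 16 and 2355, 3164 and 4892 at day 19. Both shared the low value of day 6 replicate 1, and VIM, with 2106 CPM in that library and 1827 to 1929 in the other day 6 libraries, did not.

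Of 33 genes of contraction signalling and calcium handling, 28 were tested. In edgeR, 2 rose between day 19 and day 6 and none fell, where 12.7% of all genes tested rose and 10.2% fell. None passed between day 16 and day 6, where 8.86% of all genes did. DESeq2 called 1 there and voom 2, beside 14.1% and 23.7% of all genes. An unadjusted p under 0.05 was seen for 1, against 21.1% of all genes. None passed between day 19 and day 16, where 1.2% of all genes did. DESeq2 called 1 there and voom 12, beside 10.9% and 45.7% of all genes. In this comparison 4 had an unadjusted p under 0.05, against 24.5% of all genes. PPP1R14A, an inhibitor of the phosphatase that switches myosin off, rose 3.75-fold, to 47.0, 104 and 151 CPM at day 19, against 14.6, 37.4 and 28.7 CPM at day 6 (edgeR adjusted p = 0.0145; 0.0527 without day 6 replicate 3). CACNB2, a subunit of voltage-gated calcium channels, rose 2.28-fold, to 27.7 ± 9.97 CPM at day 19, against 12.2 ± 4.13 CPM at day 6 (SD, n = 3 each; edgeR adjusted p = 0.0280). Leaving out day 6 replicate 1, 2 or 3 took the CACNB2 value to 0.0894, 0.0533 or 0.0609. The median log2 fold change of the 28 was -0.03. Without day 6 replicate 1 and day 19 replicate 1 together, 4 of the 28 rose and 16 fell between these days, in the fit that called 25% of all genes higher and 26.6% lower.

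Genes of high mean CPM in the signalling list included PPP1R12A, the targeting subunit of myosin phosphatase, and ITPR1, a calcium release channel. PPP1R12A had 153, 339 and 275 CPM at day 6, 234, 243 and 266 CPM at day 16 and 475, 163 and 172 CPM at day 19, so that it was low in day 6 replicate 1 and high in day 19 replicate 1. ITPR1 had 353, 95.3 and 119 CPM in day 19 replicates 1, 2 and 3.

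The list of transcription factors and cofactors of smooth muscle held 20 names, of which 18 were tested. The names not tested, MRTFA and MRTFB, are other names of MKL1 and MKL2, which were tested. JPH1, a membrane protein and no transcription factor, was also on the list. Of the 18, 2 rose in edgeR between day 16 and day 6, where 5.12% of all genes tested rose and 3.74% fell. Between day 19 and day 16, 1 rose and 1 fell, beside 0.516% and 0.683% of all genes. Between day 19 and day 6, 2 rose, where 12.7% of all genes rose and 10.2% fell. KLF4, which represses contractile genes in cultured smooth muscle, rose 3.05-fold, to 59.6 ± 14.7 CPM at day 16, against 19.5 ± 6.21 CPM at day 6 (SD, n = 3 each; edgeR adjusted p = 0.00927). FOXO4 rose 1.74-fold at day 16, to 77.6 ± 22.0 CPM, against 44.6 ± 3.02 CPM at day 6 (SD, n = 3 each; edgeR adjusted p = 0.0437). FOXO4 then fell by 1.14 on the log2 scale (SE 0.21, edgeR adjusted p = 0.0468), to 35.2 ± 3.08 CPM at day 19 (SD, n = 3). HOXA11, a homeobox gene of the uterine wall, rose 2.61-fold, to 509 ± 137 CPM at day 19, against 195 ± 42.8 CPM at day 16 (SD, n = 3 each; edgeR adjusted p = 0.0451), and 2.49-fold against day 6 (edgeR adjusted p = 0.00547). FHL2, a cofactor with LIM domains, rose 1.60-fold between day 19 and day 6 (edgeR adjusted p = 0.0177).

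FOXO4 in both comparisons, and HOXA11 between day 19 and day 16, kept their calls when day 19 replicate 1 was left out and lost them without each of the other 8 libraries, at edgeR adjusted p of up to 0.175. FHL2 lost its call without any of the 3 day 6 libraries or day 19 replicate 3, at up to 0.0740. KLF4, and HOXA11 between day 19 and day 6, kept theirs without each of the 9 libraries. Without day 6 replicate 1 and day 19 replicate 1 together, 3 of the 18 rose and 7 fell between day 19 and day 6, beside the same 25% and 26.6% of all genes. The central regulators MYOCD and SRF, named for their role after their values were seen, did not pass in any of the 3 comparisons. MYOCD, the cofactor myocardin that drives contractile genes, had 19.4, 101 and 64.9 CPM at day 6, 38.1, 66.2 and 72.3 CPM at day 16 and 78.1, 21.2 and 30.1 CPM at day 19. Its partner SRF had 91.5 CPM in day 6 replicate 1 and 85.5 to 159 CPM in the other libraries. FHL1 and MKL2, of the highest mean CPM in the list beside HOXA11, averaged 453 and 202 CPM over the 9 libraries.

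Other muscle genes shared the low level of day 6 replicate 1. That library was the lowest of its day for 25 of 29 filament genes and 25 of 28 signalling genes, against 5645 of 16098 genes tested, or 35.1%. Of the 18 genes tested from the transcription factor list it was the lowest for 10. The 10 genes most like the set, by Pearson's r of log2 CPM with the mean of the 10 contractile genes over the 9 libraries, were PDLIM3 at 0.97, MYADM, RBM38, RBPMS2, MRGPRF, CAMK2G, DMPK, CORO1C, BTD and CSRP1 at 0.94. They are the highest of 9578 candidates. All share the low point of day 6 replicate 1, which a choice by r with a mean that is lowest there favours. Their low point is thus no independent evidence. PDLIM3 had 317, 900.0 and 770 CPM at day 6, 657, 648 and 765 CPM at day 16 and 753, 822 and 1417 CPM at day 19.

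Marker lists of other cell types were read beside these levels. Each list's level is the median over its genes of log2 CPM, centred per gene over the 9 libraries. For the 10 contractile genes it was -1.41 in day 6 replicate 1 and 0.41 and 0.24 in replicates 2 and 3. The 13 tested macrophage genes all had their highest day 6 value in replicate 1, with a level of 0.04 there and -1.03 and -0.74 in the others. Of the 11 endothelial genes 10 had theirs there, with 0.34 against -0.11 and 0.14, and of the 14 epithelial genes 11 had theirs there, with -0.20 against -0.41 and -0.41. Of all 16098 genes tested, 6215 had their highest day 6 value in replicate 1. The pericyte list was evenly split, with 4 of its 10 genes highest and 4 lowest there, and a level of 0.31 against -0.06 and 0.06. The 4 lowest there were MCAM, CSPG4, NOTCH3 and EDNRA, and the 4 highest were RGS5, PDGFRB, GJA4 and HIGD1B, named after their values were seen. MCAM and CSPG4 had 124 and 16.2 CPM there, against 200.5 to 232 and 21.3 to 28.2 CPM in the others. RGS5 and PDGFRB had 154 and 230 CPM there, against 106 to 126 and 158 to 177 CPM in the others. The stromal fibroblast list stood at -0.01, against 0.22 and 0.25. The striated muscle list stood at -0.69 there, against 1.10 and 0.72, and the mesothelium list at 1.28, against 0.02 and -0.17. Within day 6, replicate 1 was lowest for all 10 contractile genes and for 7 of the 9 striated muscle genes tested. It was lowest for none of the 11 endothelial and 4 of the 10 pericyte genes, against 35.1% of all genes tested. The part of these cell types in the contractile result was not tested.

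Summed over the whole list, the 14 epithelial genes found in the table held 1234 to 1373 CPM at day 6, 1977 to 2125 CPM at day 16 and 1479 to 2532 CPM at day 19, with none at 0 in any library. The 13 macrophage genes held 944 to 1664 CPM at day 6, 1282 to 1703 CPM at day 16 and 1874 to 2969.5 CPM at day 19. Of the 13, 9 rose and 1 fell between day 19 and day 6 in edgeR, beside 12.7% and 10.2% of all genes tested. The 10 pericyte genes held 630 to 972 CPM at day 19 and 743 to 816 CPM at day 6, and the 11 endothelial genes 858 to 971 and 1019 to 1354 CPM. The 14 stromal fibroblast genes held 34175 to 35077 CPM at day 6, 19465 to 24994 CPM at day 16 and 20584 to 31156 CPM at day 19. The mesothelium list, with 6 genes in the table of which 3 were tested, held 136 to 477 CPM over all libraries.

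DES is also a gene of striated muscle. The striated muscle list had 15 of its 20 genes in the table, of which 3 to 5 were at 0 in each library, and together they held 111 to 203 CPM at day 6, 56.3 to 101 CPM at day 16 and 68.7 to 105 CPM at day 19. Skeletal alpha actin, ACTA1, had 25.9, 21.0 and 20.5 CPM at day 19 and 5.01, 64.97 and 14.1 CPM at day 6, and the myogenic factor MYOG and the light chain MYL1 were at 0 in all 9 libraries. Of the 9 tested, none rose and 2 fell between day 19 and day 6 in edgeR, beside 12.7% and 10.2% of all genes tested. An unadjusted p under 0.05 was seen for 1 as higher and 2 as lower, against 38.1% of all genes in either direction. DESeq2 called 1 higher and 2 lower, beside 16.8% and 13.8% of all genes. CKM, the creatine kinase of muscle, named after its values were seen, had 5.63, 25.0 and 38.0 CPM at day 19 and 4.36, 9.78 and 5.46 CPM at day 6 (log2 fold change 1.81, SE 0.58, edgeR adjusted p = 0.0516). The part of striated muscle in the DES result was not tested.

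**Figure D5:**
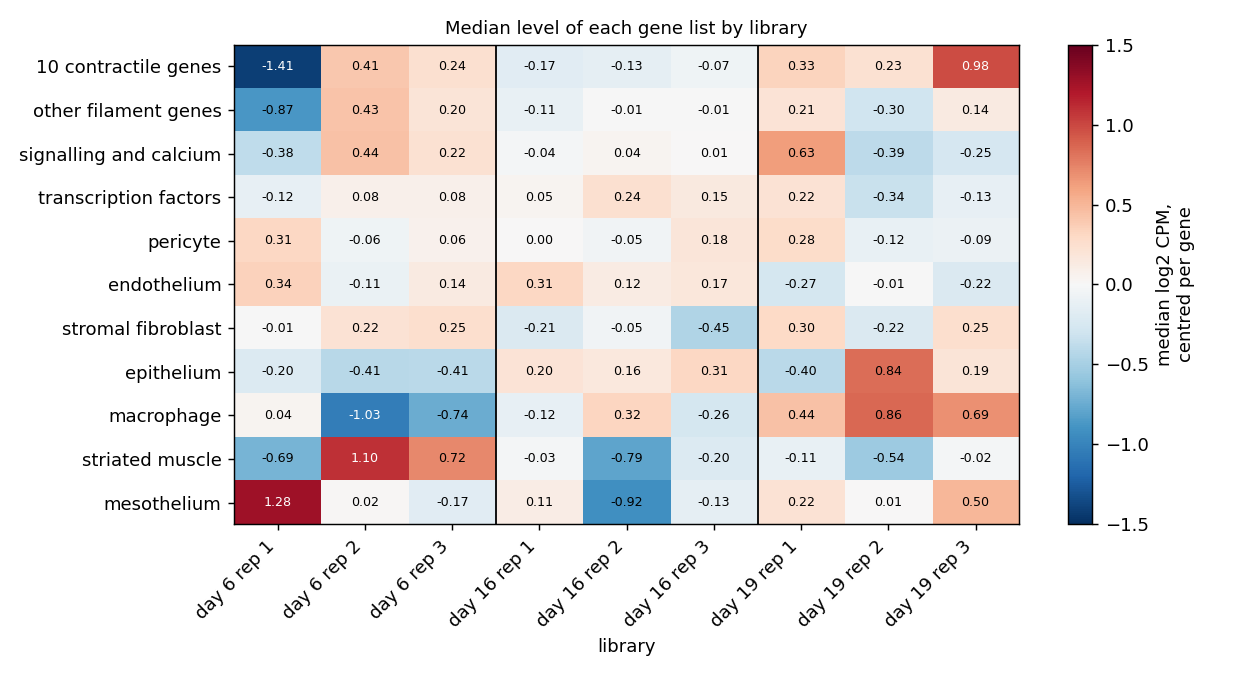
Cells give, for each gene list, the median log2 CPM of its tested genes, centred per gene over the 9 libraries shown as columns. In day 6 replicate 1 the 10 contractile genes are at -1.41 while the endothelium and pericyte lists are at 0.34 and 0.31.

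The non-muscle forms of the same protein families did not share the pattern of day 6. In day 6 replicates 1, 2 and 3 the cytoplasmic actin ACTG1 had 3579, 4249.9 and 3963 CPM, so its highest library was less than 1.2 times its lowest, and ACTB had 2258, 3470 and 2742 CPM. CNN3, a calponin of many cell types, had 224, 190 and 206 CPM there, and TAGLN2 was highest in replicate 1, at 976 CPM. Among the relatives tested and not named above with a change, MYH10, a non-muscle myosin, passed between day 19 and day 6, where it fell by 1.04 on the log2 scale (edgeR adjusted p = 0.00831).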

How the data were processed

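The deposited values are raw counts of reads for each gene, in 1 table with a column per library. Per the labels' protocols, RNA was extracted with Trizol, selected on poly(A) and made into libraries with an Ion Torrent kit. How reads were aligned and counted, with which genome, and whether strand was used is not stated by any label or header. The 10 genes and all lists were chosen with earlier results of these data known.

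The counts went into edgeR 4.0.16 (R 4.3.3) with TMM scaling, filterByExpr, a robust quasi-likelihood fit to all 9 libraries with the day as its only term, and Benjamini-Hochberg adjustment over all genes tested, called under 0.05. A standard error is the size of the log2 change over the root of its F statistic. Log2 CPM used a prior count of 2. DESeq2 1.42.0 and limma 3.58.1 (voom with sample weights) were alternatives, beside other scalings and filters, a replicate block and leaving out each library. The procedure was tested on simulated data. Named genes were the 10, and the called genes and the 3 of highest mean CPM of each smooth muscle list. Also named were the 10 genes most like the set among those above a floor of 3 on mean log2 CPM. Gene names are those of the table; in a reference gene table of a RefSeq goat assembly, whose coordinates are not used, ACTG2 and MYLK each overlap 1 other gene, so reads there could be shared. Some items are not reported here. No gene sequences were used here.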

Additional observations from a re-analysis of the deposited data

How the results depend on the processing

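Between day 16 and day 6 the count of contractile genes called was 0 under every setting but one, and 2 were called without day 6 replicate 1 and day 19 replicate 1 together. This last alternative was added after seeing the data. Between day 19 and day 16 the count of 0 became 1 in DESeq2, 3 in limma voom, 0 to 2 without 1 library and 6 without both named libraries. Between day 19 and day 6 the count of 2 stayed in DESeq2 and became 3 in limma voom. It became 1 with upper-quartile scaling, 0 with the libraries of those days alone, 0 to 2 without 1 library and 6 without both. For any difference among the 3 days the count of 1 became 2 in DESeq2, 3 in voom, 0 to 2 without 1 library and 7 without both. Over all genes, 1427 were called between day 16 and day 6, against 2274 in DESeq2, 3811 in voom, 3092 with those days alone, 664 to 3345 without 1 library and 2856 without both. For day 19 against day 16 the 193 calls became 1756, 7354, 0, 0 to 7331 and 7399, in the same order. For day 19 against day 6 the 3684 calls became 4932 in DESeq2 and 9433 in voom. They became 2357 with those days alone, 1928 to 8891 without 1 library and 8402 without both. The cause was not tested, beyond the smaller groups that leaving out a library gives. The replicate numbers did not pair the libraries: deviations from the day means correlated at -0.16 to 0.15 between same-numbered libraries. With the replicate block 1100, 0 and 2899 genes were called in the 3 comparisons and 0, 0 and 2 of the contractile genes, which is the count without it.

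Directions of small changes turned under some settings, none of them called. Between day 16 and day 6, over the fits without 1 library, MYH11 ranged from -0.50 to 0.29, ACTA2 from -0.54 to 0.19, FLNA from -0.41 to 0.29, CNN1 from -0.22 to 0.47, TAGLN from -0.48 to 0.25, MYLK from -0.70 to 0.017 and LMOD1 from -0.37 to 0.22 on the log2 scale. With the replicate block ACTA2 was at 0.014, TAGLN at 0.034 and LMOD1 at 0.059. LMOD1 was at 0.0038 with the libraries of those days alone, and CNN1 at -0.22 without both named libraries. For day 19 against day 16, FLNA ranged from -0.39 to 0.094 without 1 library, and MYLK was at -0.00091 without both. For day 19 against day 6, MYH11 ranged from -0.72 to 0.086, ACTG2 from -0.098 to 0.81, FLNA from -0.57 to 0.14, MYLK from -0.44 to 0.29 and LMOD1 from -0.039 to 0.57 without 1 library; MYLK was at 0.015 with the replicate block and LMOD1 at -0.17 without both. The summed share at day 16 was 2.29% without FLNA, against 2.96% with it. More of these genes were called without day 6 replicate 1 and day 19 replicate 1 together. Both libraries were left out after they were seen to stand apart, and the cause was not tested.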
